A study of Mus musculus with 6 samples.

Results

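The 9 genes described here are Ly6a, Ly6c1, Epcam, Clu, Spp1, Gja1, Msln, Emp1 and Basp1, markers that have been linked to fetal-like and regenerative states of the intestinal epithelium. They were taken by gene symbol from a table of expected counts for 23224 genes, and each of the 9 was found. The samples were mouse intestinal tumour organoids named AKP, a name that the labels do not spell out. The organoids were established from tumours that had grown in vivo. A Control group of 3 libraries was compared with 3 libraries whose genotype is given as SOX17KO, after deletion of SOX17 by CRISPR-Cas9 in the same AKP background. SOX17 is a transcription factor of the endoderm, and the question posed was what it does in colon cancer. The labels do not give the strain, the control vector, or whether the libraries of a group were separate clones or cultures, so the p-values reflect only how far these samples spread.

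After injury, cells of the adult intestinal epithelium can lose crypt identity for a time and take up genes of the fetal gut. Ly6a (also called Sca-1) marks such cells in the repairing colon, Clu marks revival stem cells of the damaged crypt, and Spp1 and Gja1 are high in spheroids grown from fetal gut. The YAP and TEAD regulators are known to drive much of this programme. Emp1 has been described as a marker of colorectal cancer cells that seed relapse, and Msln is an oncofetal surface protein of several carcinomas.

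Libraries held 18290912 to 27503254 expected counts, and the 9 genes took 0.781% to 0.800% of the counts in the Control libraries and 0.466%, 0.713% and 0.726% in SOX17KO replicates 1, 2 and 3. SOX17KO replicate 1 stood apart: its log2 CPM correlated at 0.960 and 0.963 with the other two SOX17KO libraries, which correlated at 0.986 with each other. With the Control libraries, SOX17KO replicate 1 correlated at 0.946 to 0.951. SOX17KO replicates 2 and 3 correlated at 0.968 to 0.97 with Control, more than with SOX17KO replicate 1. Sox17 itself was at 34.2 to 34.5 CPM in Control, against 33.8, 41.9 and 45.1 CPM where the label is SOX17KO (edgeR adjusted p = 0.345), so its RNA was not reduced and gives no check on the labels. Of 18 genes of epithelial identity, 16 had enough counts to be tested. The cadherin gene Cdh1 was at 648.4 to 836.5 CPM and Cdx2, which encodes an intestinal transcription factor, at 123.2 to 149.2 CPM. Krt20 and Cdx1 of that list were not tested and had at most 30 counts in a group. Of the genes that define other cell types, 8 fibroblast markers summed to at most 0.420 CPM, 6 endothelial markers to at most 0.878 CPM, and the T cell gene Cd3e was at 0 counts in every library. Among the other leukocyte and macrophage markers, Emr1, Lyz2, Csf1r and Itgam had at most 12 counts in a group. Ptprc, the pan-leukocyte gene, was at 0.353 ± 0.159 CPM for Control, against 0.449 ± 0.158 CPM for SOX17KO (edgeR adjusted p = 0.799). Cd68, a lysosomal gene, was at 9.06 ± 1.42 CPM for Control, against 9.89 ± 4.60 CPM for SOX17KO.

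The 9 markers did not move as a block. In the libraries labelled SOX17KO, Epcam, Clu and Basp1 rose and Emp1 fell, while Spp1, Gja1 and Msln lay below Control in every SOX17KO library without passing the test, and Ly6a and Ly6c1 lay on both sides of Control. In bulk RNA, fewer cells with a transcript and less of it per cell cannot be told apart. CPM (counts scaled to library size) are given below on TMM-adjusted library sizes, changes are log2 fold changes of SOX17KO over Control with their standard errors, and a gene was called at an adjusted p below 0.05 over all 12137 genes tested. All 9 markers passed the filter on low counts. Of these, 3 were called higher, 1 lower and 5 neither way, where 6.87% of all tested genes were called (3.67% higher and 3.20% lower). The groups did not overlap for 7 of the 9, as for 28.2% of all tested genes. Their median log2 fold change was 0.087, against 0.014 over all tested genes. Each of the 4 calls was lost when any one Control library was left out (edgeR adjusted p between 0.0858 and 0.207), settings (without replicates 1, 2 and 3) in which 1.6%, 1.56% and 1.64% of tested genes were called. Without SOX17KO replicate 1 all 9 were called, 5 higher and 4 lower (edgeR adjusted p between 0.000168 and 0.0349), in a setting in which 22.2% of tested genes were called.

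**Figure D1:**
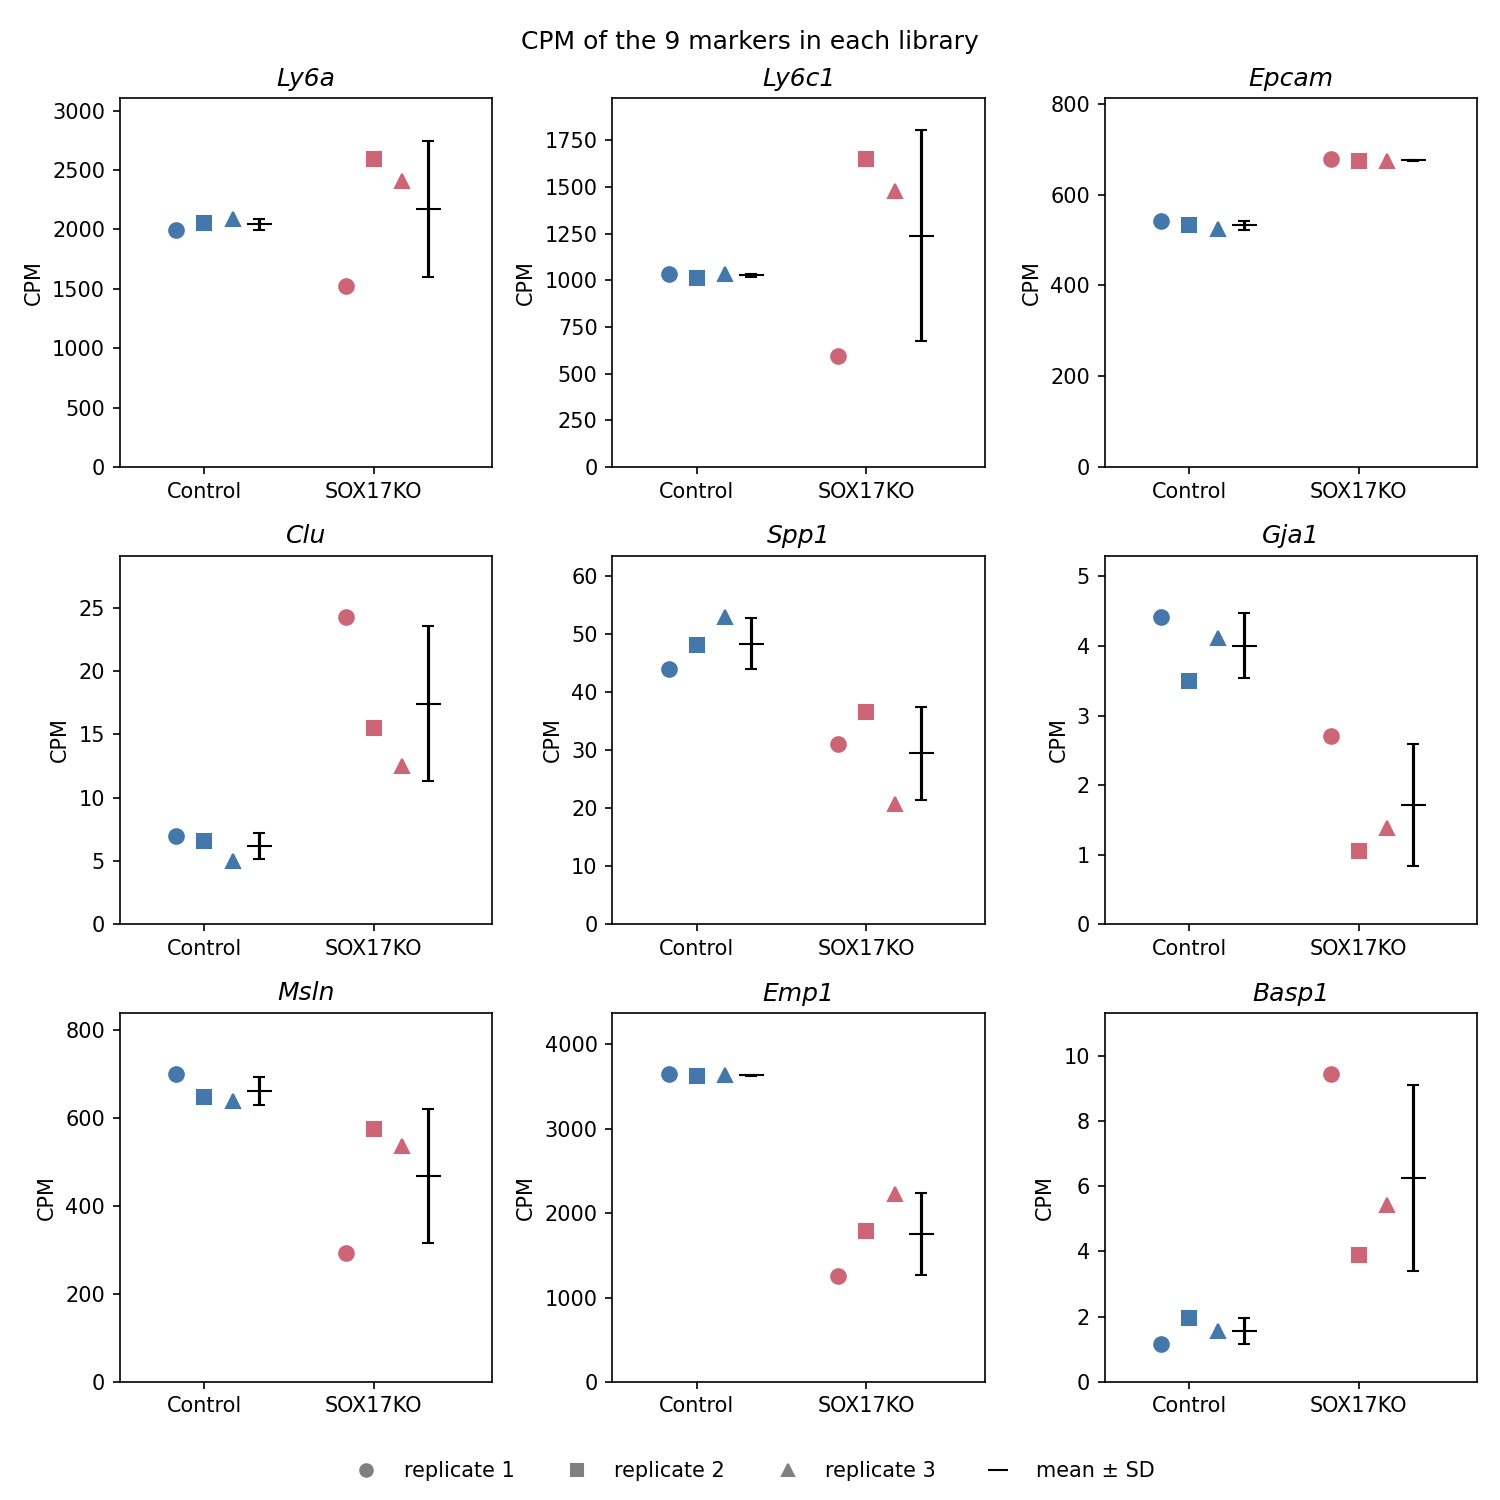
CPM of each of the 9 markers (vertical axes, linear and starting at 0) in the 3 Control libraries (blue) and the 3 SOX17KO libraries (red), with marker shapes for replicates 1, 2 and 3 and the mean ± SD of each group in black. Epcam sits near 675 CPM in every SOX17KO library, while Ly6a and Ly6c1 are low in SOX17KO replicate 1 and high in the other two.

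Ly6a and Ly6c1 encode small surface proteins held in the membrane by a lipid (GPI) anchor, and they lie close together in a cluster of related genes on chromosome 15. Ly6a was at 1994, 2053 and 2085 CPM in Control replicates 1, 2 and 3, against 1521, 2588 and 2405 CPM in the SOX17KO libraries in the same order. SOX17KO replicate 1 was thus below every Control library and the other two were above every Control library. The group means, 2044 ± 46.5 and 2171 ± 571 CPM (SD, n = 3), gave a log2 fold change of 0.087, with edgeR's adjusted p at 0.871 and a 95% interval from -0.36 to 0.54. Ly6c1 split in the same way, with 1031, 1015 and 1033 CPM across Control libraries, against 592.6, 1648 and 1479 CPM in the SOX17KO libraries. Its log2 fold change was 0.27 (95% interval -0.53 to 1.07; edgeR adjusted p = 0.750). In single SOX17KO libraries the ratio to the Control mean was 0.744, 1.27 and 1.18 for Ly6a and 0.577, 1.61 and 1.44 for Ly6c1. Without SOX17KO replicate 1 both were called higher, with log2 fold changes of 0.29 and 0.60 (edgeR adjusted p = 0.0167 and 0.000281). Without SOX17KO replicate 2 the fold change of Ly6a was on the other side of 0, at -0.06 (edgeR adjusted p = 0.912). The median difference from the Control mean over the 20 tested genes nearest to Ly6a was -0.73 in SOX17KO replicate 1 and 0.072 and 0.20 in replicates 2 and 3 (log2 CPM). These neighbours include other Ly6 genes, and the part of this neighbourhood in the values of Ly6a and Ly6c1 was not tested.

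The Ly6 genes are close copies of each other, so their reads can be hard to assign. Of the windows of 50 bases in the annotated Ly6a transcripts, 19.0% occurred also in transcripts of other genes, most often Ly6c1. For Ly6c1 it was 32.8%, most often shared with Ly6c2. No deposited value of either gene was a whole number. The same held for Epcam, Msln and Emp1, which shared 0.0%, 2.88% and 0.118% of their windows with other genes, so values that are not whole do not by themselves mark shared reads. Since Ly6a, Ly6c1 and Ly6c2 share windows, the split of reads between them is uncertain. The longest identical coding run of Ly6a and Ly6c1 is shown in capitals between 12 flanking bases on each side, 45 bases that start at coding base 37 in each gene (GENCODE vM21, GRCm38, minus strand, chr15:74996558-74997568 in exons 1 and 2 of Ly6a and chr15:75047459-75048475 in exons 2 and 3 of Ly6c1, introns not shown).
Ly6a: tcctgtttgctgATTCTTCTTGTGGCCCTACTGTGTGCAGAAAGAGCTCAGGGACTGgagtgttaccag
Ly6c1: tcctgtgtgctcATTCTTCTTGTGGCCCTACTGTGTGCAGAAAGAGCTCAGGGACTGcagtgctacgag
Ly6c1 and Ly6c2 shared a longer coding run, of 188 bases. Ly6c2 itself was low, at 4.81, 6.22 and 6.47 CPM across Control libraries, against 2.52, 11.1 and 17.6 CPM in the SOX17KO libraries, low in replicate 1 and high in the other two, as for Ly6c1. Of 26 other genes of the Ly6 and uPAR family 24 were in the table and 15 were tested, and none was called with edgeR. At an unadjusted p below 0.05 there were 4, and DESeq2 and limma-voom called 0. The others had at most 13 counts in a group. Ly6e, the most abundant of them, was at 1414 ± 102.3 CPM for Control, against 1360 ± 214.4 CPM for SOX17KO (edgeR adjusted p = 0.883).

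Epcam encodes an adhesion protein of epithelial cells and varied little within each group. It was at 541.9, 532.2 and 523.5 CPM across Control libraries, against 677.7, 674.7 and 675.3 CPM in the SOX17KO libraries, so that every SOX17KO library was higher. The rise was small, 1.27-fold, with a log2 fold change of 0.34 ± 0.071 (SE; edgeR adjusted p = 0.0343). The ratio of each SOX17KO library to the Control mean was 1.27, also in SOX17KO replicate 1, which stood apart for most other markers. The call was also lost without SOX17KO replicate 2 or 3 (edgeR adjusted p = 0.0657 and 0.0749) and with no low-count filter (edgeR adjusted p = 0.0707), while the log2 fold change stayed between 0.32 and 0.36 in all 14 alternatives.

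Other epithelial genes did not rise as a group. Of 18 genes of epithelial identity 16 were tested, of which 2 were called higher and 2 lower, with a median log2 fold change of 0.049. The shares over all tested genes were 3.67% higher and 3.20% lower. For 8 of these 16 the groups did not overlap, against 28.2% of all tested genes. The tight junction genes Cldn7 and Ocln were higher, at 223.9 ± 6.56 and 301.8 ± 17.9 CPM for Cldn7 and at 45.0 ± 2.36 and 64.8 ± 5.42 CPM for Ocln in Control and SOX17KO (edgeR adjusted p = 0.0223 and 0.0180). Cldn3 fell from 223.3 ± 15.2 to 96.2 ± 10.2 CPM and Cldn4 from 156.5 ± 10.7 to 73.1 ± 8.34 CPM (edgeR adjusted p = 0.00136 and 0.00224). Both lie in one stretch of chromosome 5 among genes that were lower, so their neighbours are largely the same genes. Around each, 15 of the 20 nearest tested genes were called lower, against 16.6% of the other tested genes on that chromosome. The part of this neighbourhood in their fall was not tested. Cldn7 was named after its values were seen. The calls of Cldn7 and Ocln were lost without any one Control library (highest edgeR adjusted p 0.143 and 0.112).

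Clu and Spp1 encode secreted glycoproteins, clusterin and osteopontin, and their values in SOX17KO lay on opposite sides of Control. Clu, an extracellular chaperone gene, was at 6.98, 6.55 and 5.02 CPM across Control libraries, against 24.3, 15.5 and 12.5 CPM in the SOX17KO libraries. Every SOX17KO library was above every Control library, with replicate 1 the highest. The log2 fold change was 1.50 ± 0.27 (SE; edgeR adjusted p = 0.0206), a 2.82-fold rise, on 462 counts over the Control libraries and 1215 over the SOX17KO libraries. Spp1 was at 44.0, 48.1 and 52.9 CPM across Control libraries, against 31.0, 36.5 and 20.8 CPM in the SOX17KO libraries, every SOX17KO library below every Control library. Its log2 fold change of -0.71 ± 0.20 (SE) missed the threshold with edgeR (adjusted p = 0.0876) and passed it with DESeq2 (adjusted p = 0.0105), which called 10.7% of the genes it tested. Among receptors, 8 of 11 integrin, lipoprotein receptor and CD44 genes that can bind these proteins were tested. Of these 1 was called, where 6.87% of all tested genes were called. That gene, the integrin subunit gene Itgb5, rose from 15.5 ± 1.46 to 43.6 ± 2.39 CPM, a change of 1.50 ± 0.10 on the log2 scale (SE; edgeR adjusted p = 0.000718). It was called in all 14 alternatives.

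Gja1, which encodes the gap junction protein connexin 43, was low in all libraries. It was at 4.41, 3.49 and 4.11 CPM across Control libraries, against 2.71, 1.05 and 1.39 CPM in the SOX17KO libraries. Every SOX17KO library was below every Control library, on 303 counts over Control and 120 over SOX17KO. The log2 fold change of -1.21 ± 0.36 (SE) missed the threshold with edgeR (adjusted p = 0.102) and passed it with DESeq2 (adjusted p = 0.0292). Unlike Clu, Basp1 and Emp1, Gja1 had its smallest difference from Control in SOX17KO replicate 1. Of 13 other connexin genes examined 7 were tested and none was called with edgeR, and the untested ones had at most 15 counts in a group. Of the 7, 2 had an unadjusted p below 0.05, and DESeq2 called 2 (Gjb1 and Gjb2) and limma-voom 0. Gjb2, the most abundant of the 7, was at 19.6 ± 1.61 CPM for Control, against 29.2 ± 4.36 CPM for SOX17KO (edgeR adjusted p = 0.0508).

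Msln encodes mesothelin, a GPI-anchored surface protein. It was at 698.6, 646.7 and 638.9 CPM across Control libraries, against 292.7, 575.0 and 536.0 CPM in the SOX17KO libraries. SOX17KO replicate 1 was the lowest of all, and the other two lay closer to Control, with ratios of 0.869 and 0.810 to the Control mean. The log2 fold change was -0.50 (95% interval -1.06 to 0.058; edgeR adjusted p = 0.302), and -0.25 without SOX17KO replicate 1 (edgeR adjusted p = 0.0349). Msln is also a marker of mesothelial cells. Of 5 other mesothelial markers, Wt1 and Calb2 were at 0 counts in every library and Upk3b had at most 8 counts in a group. Lrrn4 and Upk1b were tested and not called (edgeR adjusted p = 0.362 and 0.546). Lrrn4 was at 2.75, 2.63 and 1.90 CPM across Control libraries, against 0.916, 1.98 and 1.83 CPM in the SOX17KO libraries, lowest in replicate 1 as was Msln. The 5 markers summed to between 6.24 and 7.13 CPM over the Control libraries and to 2.52, 11.0 and 13.5 CPM in SOX17KO replicates 1, 2 and 3, and their part in the values of Msln was not tested. The related gene Mslnl had at most 13 counts in a group.

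Emp1 encodes a tetraspan membrane protein and was among the most abundant genes of the Control libraries, ranking at position 12 by mean CPM. It was at 3642, 3629 and 3633 CPM across Control libraries, against 1256, 1786 and 2222 CPM in the SOX17KO libraries. The Control libraries were nearly equal, and every SOX17KO library was lower, by different amounts. A larger SD in SOX17KO than in Control was found for 81.8% of all tested genes. The means of Emp1 were 3635 ± 6.44 CPM for Control and 1754 ± 484.0 CPM for SOX17KO. The log2 fold change was -1.05 ± 0.20 (SE; edgeR adjusted p = 0.0237), so that Control was 2.07-fold higher. The call was lost without SOX17KO replicate 2 as well (edgeR adjusted p = 0.0627). Emp1 lies on chromosome 6, where 75.4% of the other tested genes had a negative log2 fold change, with a median of -0.24, against a median of 0.014 over all tested genes. Of its 20 nearest tested genes 14 had a negative value and 5 were called lower and 3 higher, with a median of -0.35. Among the other tested genes of chromosome 6, 10.6% were called lower and 2.39% higher. The part of this chromosome-wide shift in the fall of Emp1 was not tested.

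Its relatives did not pass the test. Emp2 was at 419.7 ± 21.8 CPM for Control, against 364.5 ± 108.1 CPM for SOX17KO (edgeR adjusted p = 0.700), and none of the 3 tested of 5 genes of the Emp and Pmp22 family was called with edgeR, DESeq2 or limma-voom (1 had an unadjusted p below 0.05). Of 13 genes that accompany Emp1 at the invasive edge of colorectal tumours 12 were tested, and 1, the claudin gene Cldn4 described above, was called. Over all tested genes 6.87% were called. The median log2 fold change of this list was 0.013, with 6 tested genes positive and 6 negative. Lama3, Lamb3 and Plaur, which encode laminin chains and the urokinase receptor, were named after their values were seen. Each lay lower in every SOX17KO library, without a call (edgeR adjusted p = 0.322, 0.173 and 0.327). Itga2 of the same list, also named after its values were seen, lay above Control in every SOX17KO library. It was at 3.41 ± 0.872 CPM for Control, against 8.26 ± 4.18 CPM for SOX17KO (edgeR adjusted p = 0.0998). The groups did not overlap for 6 of the 12 tested genes of this list, against 28.2% of all tested genes.

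Basp1 encodes a membrane-bound protein of the Marcks and Gap43 group and was the least abundant of the called markers. It was at 1.16, 1.96 and 1.56 CPM across Control libraries, against 9.43, 3.91 and 5.43 CPM in the SOX17KO libraries. Every SOX17KO library was above every Control library. The log2 fold change of 2.01 ± 0.38 (SE; edgeR adjusted p = 0.0248) was a 4.03-fold rise, on 114 counts over Control and 434 over SOX17KO. The call was also lost without SOX17KO replicate 3 (edgeR adjusted p = 0.0506). Of its relatives Marcksl1 was at 7.62 ± 0.656 CPM across Control libraries, against 16.3, 1.93 and 4.71 CPM in the SOX17KO libraries (edgeR adjusted p = 0.996), and Gap43 was at 0 counts in every library. Marcks, named after its values were seen, lay above Control in every SOX17KO library without a call (edgeR adjusted p = 0.295). It was at 0.489 ± 0.0793 CPM for Control, against 1.04 ± 0.681 CPM for SOX17KO, on 37 and 65 counts.

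**Figure D2:**
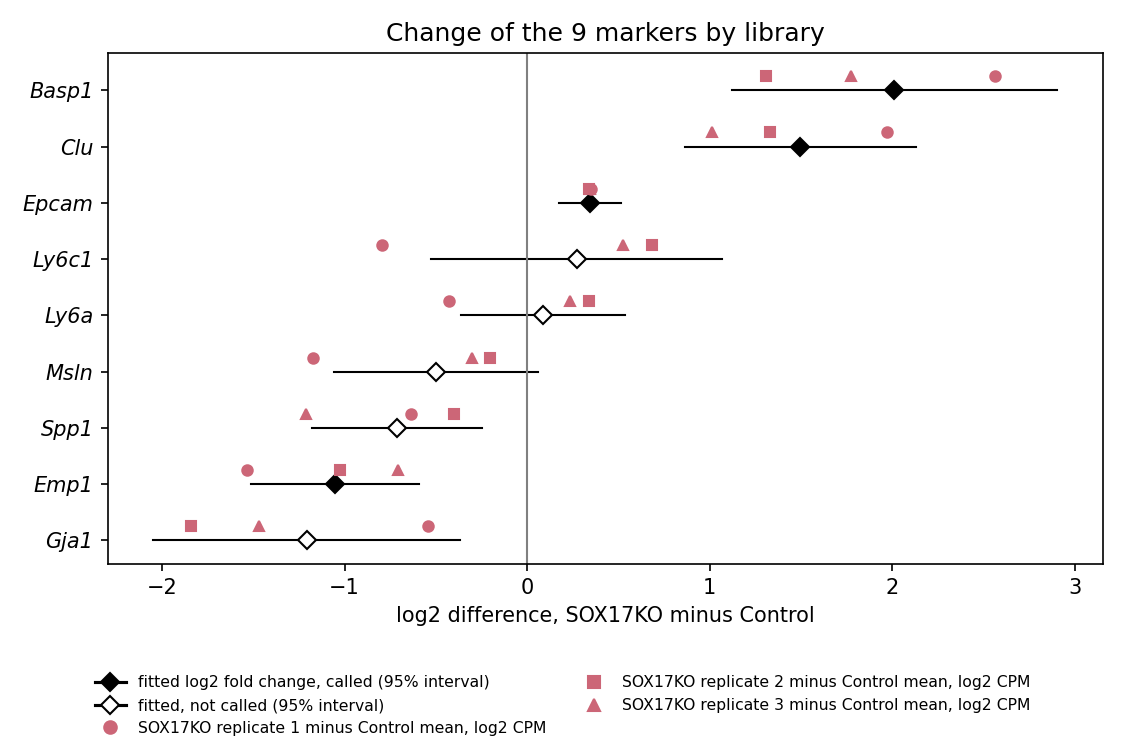
Log2 difference between SOX17KO and Control (horizontal axis) for the 9 markers: diamonds are fitted log2 fold changes with their 95% intervals, filled where called, and red symbols are single SOX17KO libraries minus the Control mean in log2 CPM. Basp1, Clu and Epcam lie to the right and Emp1 to the left of 0 in every library, while the symbols of Ly6a and Ly6c1 fall on both sides.

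Among the libraries labelled SOX17KO, replicate 1 held the lowest value of all 6 libraries for 4 markers (Ly6a, Ly6c1, Msln and Emp1) and the highest for 3 (Epcam, Clu and Basp1). Spp1 was lowest in SOX17KO replicate 3 and Gja1 in SOX17KO replicate 2. Levels of different genes were compared per kilobase of annotated exon, with lengths from GENCODE vM21 rather than from the authors' gene models. In Control, Ly6a was highest at 1696 ± 38.6 CPM per kilobase. Emp1 and Ly6c1 followed at 612.4 ± 1.09 and 612.2 ± 6.02, which did not differ beyond their spread, then Epcam at 242.6 ± 4.20 and Msln at 215.9 ± 10.6. Spp1 was at 29.3 ± 2.70, Clu at 1.80 ± 0.300, Basp1 at 0.776 ± 0.200 and Gja1 at 0.391 ± 0.0458 CPM per kilobase. In SOX17KO the means of Ly6c1 (739.3 ± 338.0), Epcam (307.9 ± 0.731) and Emp1 (295.6 ± 81.6 CPM per kilobase) stood in that order, and Epcam and Emp1 did not differ beyond their spread.

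The 6 members with a promoter entry in RefSeq (GRCm38.p6) had 9 windows of 250 bases before an annotated start; Ly6a, Clu and Msln had none. The windows were searched on both strands for GGAATG, the TEAD motif, TGANTCA, the AP-1 motif, which reads the same on both strands, and AACAAT, a SOX motif. Of all 32851 windows of that length in the table, 12.6%, 6.75% and 9.42% held them. No window of a member held the TEAD or the SOX letters. TGANTCA occurred in 2 windows, those of Emp1 and Gja1; it started 145 and 25 bases before the start of Emp1 and 19 bases before that of Gja1. These windows, plus strand, are shown with the matches in capitals, at chr6:135362681-135362930 for Emp1, whose other window held no match, and chr10:56377050-56377299 for Gja1.
Emp1: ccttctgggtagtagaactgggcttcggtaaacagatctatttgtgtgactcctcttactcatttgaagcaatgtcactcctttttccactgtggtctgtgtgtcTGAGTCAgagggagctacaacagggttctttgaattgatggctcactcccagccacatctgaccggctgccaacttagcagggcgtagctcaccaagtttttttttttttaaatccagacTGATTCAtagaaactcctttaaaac
Gja1: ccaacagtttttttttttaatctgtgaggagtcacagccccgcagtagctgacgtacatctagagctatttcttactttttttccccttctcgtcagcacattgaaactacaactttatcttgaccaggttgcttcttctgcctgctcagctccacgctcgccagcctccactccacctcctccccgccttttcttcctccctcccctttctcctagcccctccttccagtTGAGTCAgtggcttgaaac
For comparison the windows of Epcam (chr17:87635729-87635978, plus strand) and Basp1 (chr15:25413765-25414014, minus strand), which were called higher, held none of the 3 motifs. The 2 windows of Spp1 held none either, and Spp1, like Emp1 and Gja1, was lower in every SOX17KO library.
Epcam: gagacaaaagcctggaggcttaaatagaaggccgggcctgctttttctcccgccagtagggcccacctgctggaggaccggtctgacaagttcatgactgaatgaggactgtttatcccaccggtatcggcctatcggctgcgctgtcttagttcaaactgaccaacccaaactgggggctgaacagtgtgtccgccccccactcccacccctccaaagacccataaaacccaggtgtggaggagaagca
Basp1: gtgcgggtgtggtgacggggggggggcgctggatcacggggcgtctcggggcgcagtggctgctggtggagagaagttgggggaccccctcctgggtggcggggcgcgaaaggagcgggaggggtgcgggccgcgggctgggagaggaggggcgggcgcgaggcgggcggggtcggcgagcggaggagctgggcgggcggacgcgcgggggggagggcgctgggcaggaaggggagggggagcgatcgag
A match of letters is a description and shows no binding.

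The genes next to most markers did not move with them. The 20 nearest tested genes had a median log2 fold change of 0.012 around Clu, 0.0054 around Gja1, 0.032 around Msln, -0.0019 around Spp1 and -0.11 around Basp1, and the 19 nearest had 0.063 around Epcam. Of these neighbours 1 was called higher around each of Clu, Spp1 and Gja1, 2 around Epcam and 0 around Msln and Basp1. Only around Basp1, among these 6, was a neighbour called lower, and it was 1 gene. Emp1 was the marker with the most called neighbours, 8 of 20. On its chromosome 10.6% of the other tested genes were called lower and 2.39% higher, and over all tested genes 6.87% were called.

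**Figure D3:**
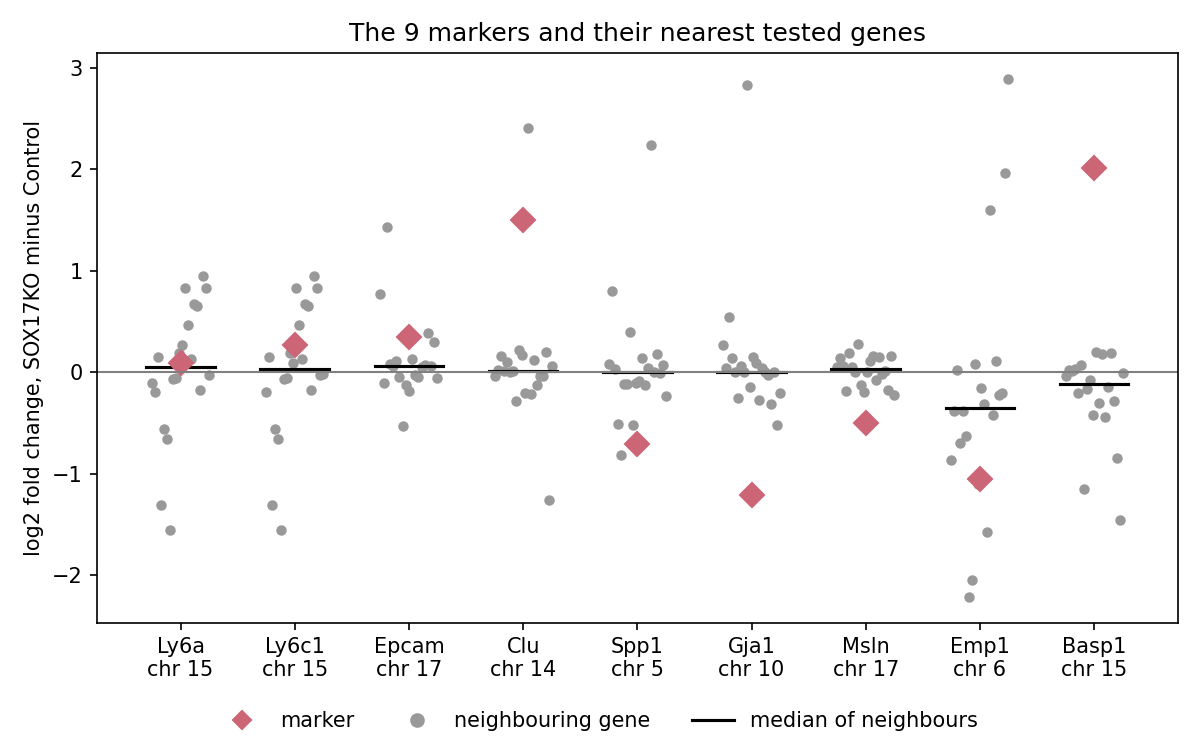
Log2 fold change of SOX17KO over Control (vertical axis) of each marker (red diamond) and of its nearest tested genes on the same chromosome (grey points, median as a black bar). The median of the neighbours is -0.35 for Emp1 on chromosome 6 and between -0.11 and 0.063 for the other 8 markers.

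Of 23 other fetal-like and regenerative genes examined 20 were tested, of which 1 was called higher and 3 lower, with a median log2 fold change of -0.073. Over all tested genes 3.67% were called higher and 3.20% lower. The groups did not overlap for 8 of the 20, against 28.2% of all tested genes. The one called higher was Ctgf, a matricellular protein gene and YAP target. Ctgf was at 1.16, 1.29 and 1.14 CPM across Control libraries, against 13.8, 14.2 and 24.7 CPM in the SOX17KO libraries. It was called in all 14 alternatives. Cyr61, a second YAP target, was at 1.88, 1.34 and 2.17 CPM across Control libraries, against 7.02, 2.37 and 3.82 CPM in the SOX17KO libraries and was not called (edgeR adjusted p = 0.128). Ccnd2 was at 258.7 ± 7.24 CPM for Control, against 527.5 ± 217.0 CPM for SOX17KO, and was not called (edgeR adjusted p = 0.102). Like Cyr61, it lay above Control in every SOX17KO library. The genes called lower were Anxa8, an annexin gene, Tgm2, which encodes a transglutaminase, and Il1rn, which encodes the interleukin 1 receptor antagonist. Tgm2 fell from 35.0 ± 4.71 to 21.3 ± 2.55 CPM, a log2 change of -0.72 ± 0.14 (SE; edgeR adjusted p = 0.0263). Il1rn, named like Cyr61 and Ccnd2 after its values were seen, fell from 116.5 ± 2.34 to 71.6 ± 13.5 CPM, a log2 change of -0.70 ± 0.14 (SE; edgeR adjusted p = 0.0303). All 3 calls were lost without any one Control library (highest edgeR adjusted p 0.0769 for Anxa8, 0.120 for Tgm2 and 0.136 for Il1rn). Without SOX17KO replicate 1 the list had 5 calls higher and 5 lower, in a setting with 22.2% of all genes called. The untested members of the list, Anxa10, Ereg and Il11, had at most 24 counts in a group.

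**Figure D4:**
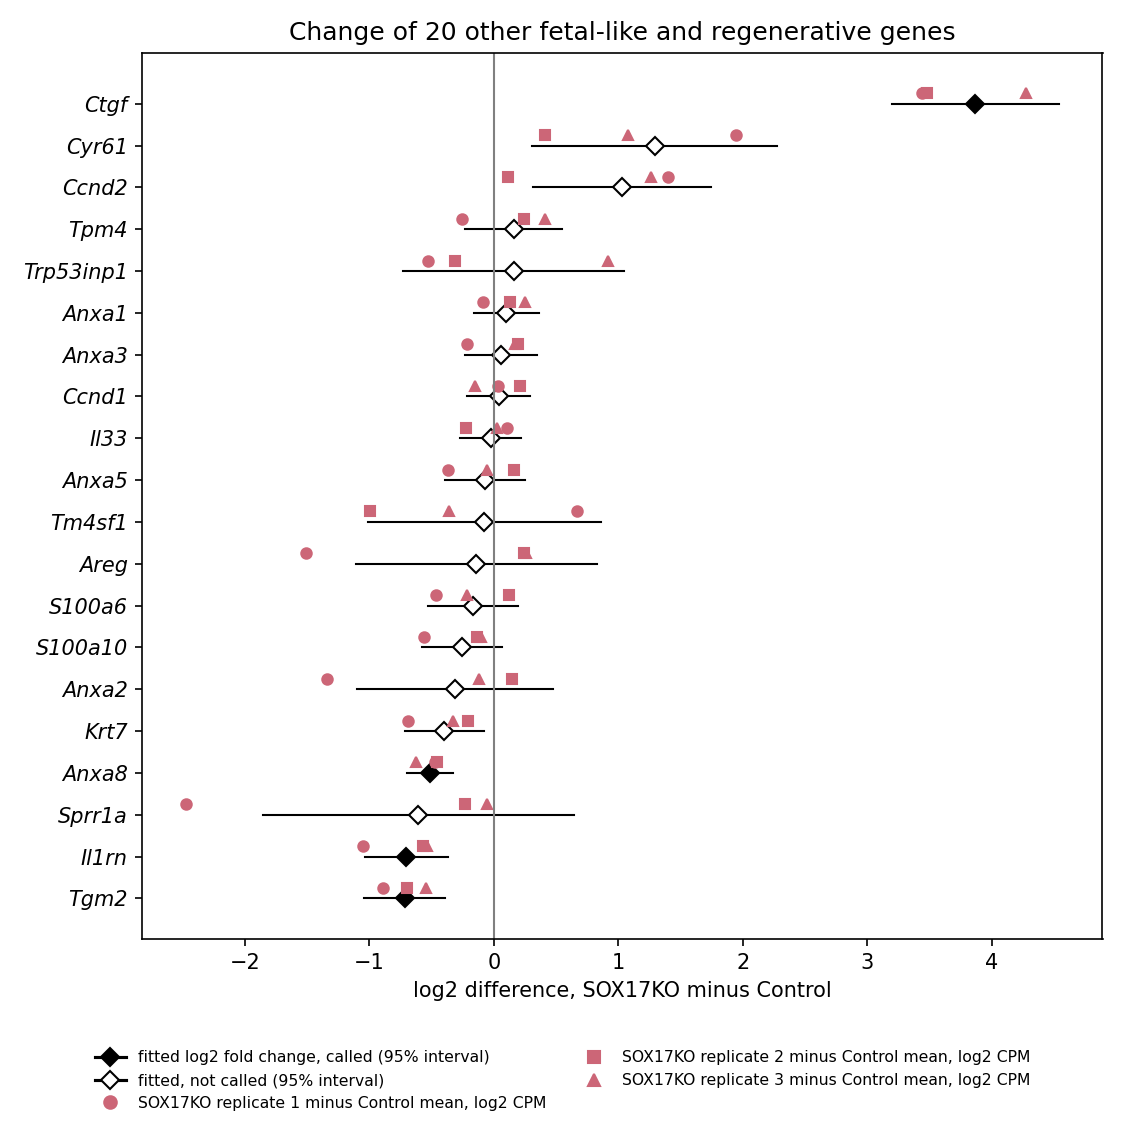
Log2 difference between SOX17KO and Control (horizontal axis) for the 20 tested genes of the other fetal-like list, with fitted log2 fold changes and 95% intervals (diamonds, filled where called) and single SOX17KO libraries minus the Control mean (red symbols). Ctgf stands to the right at 3.87, and the filled diamonds of Anxa8, Il1rn and Tgm2 lie between -0.52 and -0.72.

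For each marker the genes of like level whose 6 library values followed it most closely were taken, by the root mean square difference of log2 CPM after each gene's Control mean was subtracted. For Msln these were Cd82, a tetraspanin gene, and Lrrc66 (0.0454 and 0.0646 of 1547 candidate genes), and for Epcam Twf1, an actin-binding protein gene, and Man2a1 (0.0605 and 0.0691). For Ly6a they were Nars, a tRNA synthetase gene, and the keratin gene Krt18 (0.0695 and 0.0786), and for Ly6c1 Mlph and Plac8 (0.121 and 0.132). Gpr56, an adhesion receptor gene, and 1700001L05Rik were nearest to Clu (0.147 and 0.177), and Dll4, which encodes a Notch ligand, and Cxcl13, a chemokine gene, to Basp1 (0.160 and 0.182). Agpat3 and 3110082I17Rik were nearest to Spp1 (0.150 and 0.158) and Pdzd2 and Aldh3a1 to Gja1 (0.152 and 0.212). Krt4 and Sprr2a1, genes of stratified epithelium, were nearest to Emp1 (0.247 and 0.314). Their log2 fold changes, -0.92 and -1.08, were negative, which follows from their choice for likeness to Emp1. The genes nearest to the other markers likewise had the sign of their marker. These genes were picked for their likeness over 6 libraries, and no test was made of it.

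**Figure D5:**
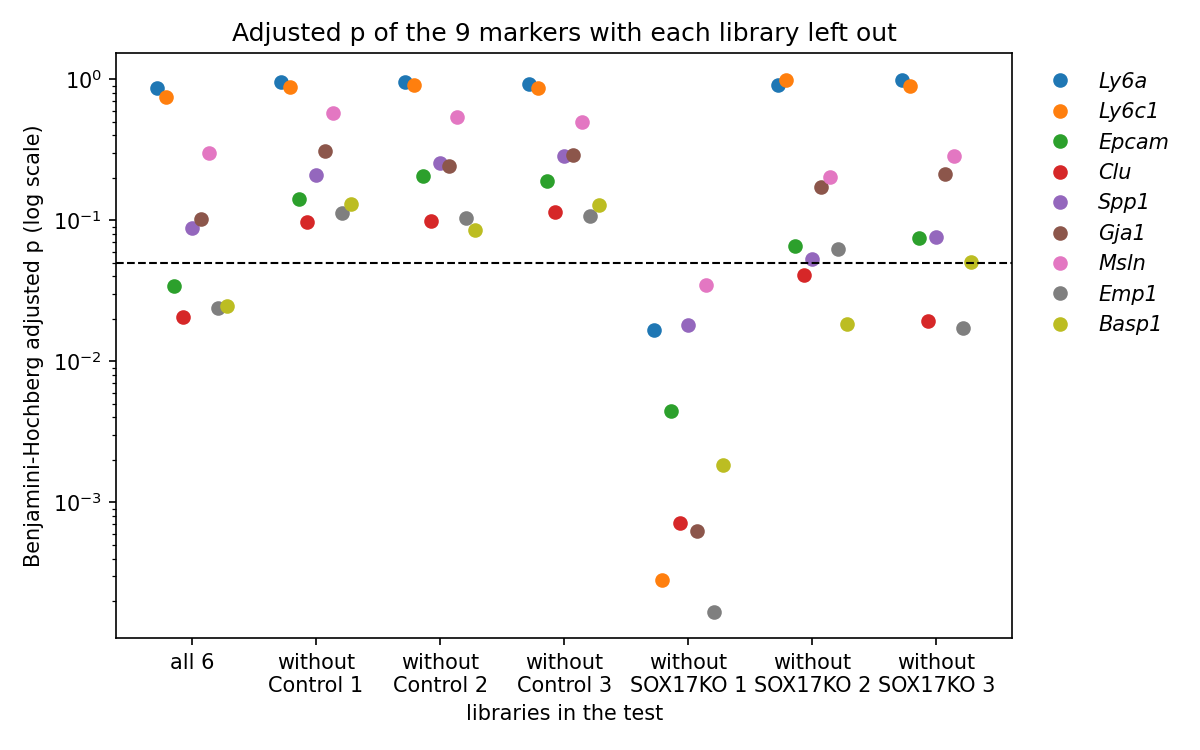
Benjamini-Hochberg adjusted p of edgeR (vertical axis, log scale) for each of the 9 markers with all 6 libraries and with each library left out (horizontal axis), with a dashed line at 0.05. All 9 points lie above the line without any one Control library and below it without SOX17KO replicate 1.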

How the data were processed

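Poly(A)-selected, directional RNA libraries from AKP organoids were sequenced, per the labels' protocols. The authors deposited 1 table of expected counts (estimated reads per gene). Bowtie, RSEM and mm9 are listed in the submitters' processing notes; for the versions, the annotation and the strand setting the entry is "not given in the sources used here". Values were rounded, filtered (filterByExpr, minimum count 10, minimum total 15), scaled by TMM and tested across 12137 genes with edgeR 4.0.16 (R 4.3.3, quasi-likelihood F test), and p-values were adjusted after Benjamini and Hochberg. Standard errors are log2 fold changes over the square root of F, and CPM are shown as mean ± SD over 3 libraries. Reads carried no molecular identifiers. The procedure was tested on simulated data. It recovered 16.4% of 1.5-fold, 70.1% of 2-fold and 87.9% of 4-fold changes, with 4 false calls among 120 calls.

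Alternatives were other scalings (RLE factors, or library totals), other filters (none, or 1 CPM in at least 3 libraries), DESeq2 1.42.0, limma-voom (limma 3.58.1), values left unrounded, a replicate block, and omission of each library. Members, lists and tests were chosen with earlier results of these data known. Named genes were the 9 members, up to 3 called genes of each list by smallest p or else its most abundant gene, and the 2 genes nearest to each member in profile (mean log2 CPM within 2). Gene order came from RefSeq on GRCm38.p6, a build later than mm9, which matched 99.0% of tested genes. Ly6g, Lypd8 and Muc16 were not analysed here, and some genes of the lists are not reported here.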

Additional observations from a re-analysis of the deposited data

How the results depend on the processing

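The log2 fold changes of Epcam, Clu, Basp1, Emp1, Spp1, Gja1, Msln and Ly6c1 kept their sign in all 14 alternatives. That of Ly6a ranged from -0.060 (without SOX17KO replicate 2) to 0.29 (without SOX17KO replicate 1) when each library was left out. DESeq2 called 770 genes higher and 667 lower, with 3 markers lower (Emp1, Spp1 and Gja1) and 3 higher and 4 lower among the other fetal-like genes. With the replicate number as a block, 183 genes were called higher and 143 lower, 1 marker higher (Clu) and 1 lower (Emp1), and 0 of the other fetal-like genes lower. No pairing by replicate number was seen: deviations of same-numbered libraries from their group means correlated at -0.186, -0.0467 and -0.181, and 0 of 6 libraries correlated best with their own number. With 3 libraries in each group, this cannot show that the samples were unpaired. With each library left out in turn, between 97 and 1453 genes were called higher and between 94 and 1255 lower, between 0 and 5 markers higher and between 0 and 4 lower, and between 1 and 5 other fetal-like genes higher and between 0 and 5 lower. The extremes at the high end came without SOX17KO replicate 1. Of the markers called higher, Epcam alone was lost with no low-count filter. The cause of these changes was not tested. Counts limit Gja1 and Basp1 most, with 24 counts in the lowest library for Gja1 and 32 for Basp1.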

Other observations

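Beside Ly6a and Ly6c1 on chromosome 15, the Ly6 relatives Ly6d and Slurp1, which are known from stratified epithelium, were low in SOX17KO replicate 1; both were named after their values were seen. Ly6d was at 120.4, 108.4 and 107.0 CPM across Control libraries, against 8.93, 63.6 and 42.3 CPM in the SOX17KO libraries. Slurp1 was at 110.8, 104.6 and 113.9 CPM across Control libraries, against 11.6, 70.1 and 51.4 CPM in the SOX17KO libraries. All SOX17KO libraries lay below all Control libraries for both genes, and neither was called (edgeR adjusted p = 0.188 and 0.233). Upk1b, a tetraspanin gene counted among the mesothelial markers, was at 4.16 to 4.31 CPM across Control libraries, against 1.60, 8.998 and 11.6 CPM in the SOX17KO libraries (edgeR adjusted p = 0.546), low in replicate 1 and high in the other two, as were Ly6a and Ly6c1.

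Pmp22, a relative of Emp1 named after its values were seen, was at 31.0 CPM in SOX17KO replicate 1 and between 4.59 and 6.45 CPM in each of the other 5 libraries (edgeR adjusted p = 0.270).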
